A study of Arabidopsis thaliana with 20 samples.

Results

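The 10 genes described here, GSTF2, GSTF3, GSTF6 to GSTF12 and GSTF14, encode phi-class glutathione transferases of Arabidopsis thaliana and were taken by their gene identifiers from the 33602 genes of the deposited tables. They were chosen by their measured chromatin-bound and mRNA levels and genotype differences in these same tables, so those differences between genotypes are given as descriptions: where members are counted as past the threshold used for all genes, the count restates the choice and tests nothing. RNA came from seedlings of the double mutant rz-1b rz-1c and of wild-type Col-0, all grown for 10 days at 22 °C with 16 h of light and 8 h of dark. The labels name the mutated genes but not the alleles, and nothing in them ties a replicate to its own culture, so p-values measure the spread between these samples, which may be technical. For chromatin-bound RNA, which is the RNA that stays with chromatin when nuclei are washed and was here depleted of rRNA and of polyadenylated RNA, the authors deposited 2 replicate columns per genotype. Each column stands for 2 sequencing libraries, and its unit is FPKM, in which fragment counts are divided by gene length and by the library's total. For mRNA, sequenced from 3 libraries per genotype, their table holds 1 FPKM-like value per genotype and a q value, so it carries no spread between samples.

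Glutathione transferases attach the tripeptide glutathione to reactive or toxic molecules, and the conjugates are then carried into the vacuole or broken down. The phi class is a plant class. Some of its genes are switched on quickly by pathogens, oxidants and salicylic acid, others are made steadily at a high level, and a few act in single pathways such as the synthesis of camalexin, an indole defence compound, or the transport of anthocyanin pigments. Among the stress-inducible genes GSTF2 encodes a protein known to bind indole compounds, GSTF3 is its close relative, GSTF6 adds glutathione in camalexin synthesis, and GSTF7 is the tandem neighbour of GSTF6. GSTF8 is a widely used marker of early stress signalling, GSTF9 encodes an abundant enzyme that also reduces peroxides, and GSTF10 was found as an early dehydration-responsive gene. GSTF11 belongs to the set expressed with aliphatic glucosinolate genes, and GSTF12, also known as TRANSPARENT TESTA 19, is needed for anthocyanin to reach the vacuole.

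The chromatin-bound columns differed in depth and in rRNA. Relative depth, read from the steps that 1 fragment leaves in low FPKM values, was estimated at 2.79 and 2.98 in the mutant replicates and 1.51 and 1 in the Col-0 replicates. The estimate is rough, since the most common ratio between columns held 3.33% of low genes for mutant replicate 1, 2.42% for mutant replicate 2 and 7.09% for Col-0 replicate 1. Mutant replicate 1 was scaled through mutant replicate 2, as its direct ratio was ambiguous. Nuclear rRNA held between 31.6% and 34.1% of the mutant FPKM total and between 53.6% and 60.5% of the Col-0 total. Over all tested genes the median log2(FPKM + 1) difference, mutant minus Col-0, was 0.27. RZ-1C, one of the mutated genes, had 4.59 and 4.27 FPKM in mutant chromatin-bound RNA against 16.7 and 13.1 in Col-0, and RZ-1B, the other, had 132 and 143 FPKM in the mutant against 10.5 and 9.42 in Col-0. In mRNA both were lower in the mutant, with 2.77 FPKM in the mutant against 31.7 in Col-0 for RZ-1C and 2.299 in the mutant against 15.2 in Col-0 for RZ-1B in the authors' deposited table. The labels do not give which part of RZ-1B is disrupted, so its chromatin-bound level is no check of the genotype label.

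GSTF2, GSTF3, GSTF6 and GSTF7, grouped here by their values, were lower in the mutant's chromatin-bound RNA and higher in its mRNA. They are not all the members tied to stress: GSTF8 and GSTF10 had lower mRNA values in the mutant. GSTF7 (AT1G02920) differed most: it had 13.6 and 11.4 FPKM in the mutant chromatin-bound replicates, against 126 and 211 FPKM in Col-0. Both mutant replicates lay below both Col-0 replicates, 13.4-fold lower by the means, and the log2(FPKM + 1) difference was -3.60 (SE 0.26, n = 2 per genotype). In mRNA the authors' deposited table gives GSTF7 as 631 FPKM in the mutant and 63.4 FPKM in Col-0, 9.95-fold higher in the mutant. GSTF6 (AT1G02930) had 36.6 and 28.7 FPKM in mutant chromatin-bound RNA, against 123 and 195 FPKM in Col-0. Its replicates did not overlap, and the difference of -2.22 on the same scale (SE 0.25) corresponds to means 4.86-fold lower in the mutant. In mRNA GSTF6 ran the other way, with 751 FPKM in the mutant and 50.2 FPKM in Col-0 in the authors' deposited table, 14.96-fold higher in the mutant. In bulk seedlings, a gene active in fewer cells and a gene giving less RNA per cell cannot be told apart.

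GSTF2 (AT4G02520) had 34.1 and 35.1 FPKM in the mutant chromatin-bound replicates, against 173 and 267 FPKM in Col-0, where it had the highest mean of the 10. The mutant mean of 34.6 ± 0.703 FPKM stood against 220.1 ± 66.1 FPKM in Col-0 (SD, n = 2 each), a log2(FPKM + 1) difference of -2.60 (SE 0.23). Its mRNA was 424 FPKM in the mutant and 156 FPKM in Col-0 in the authors' deposited table, a smaller rise than that of GSTF6 or GSTF7 at 2.71-fold. GSTF3 (AT2G02930) was far lower in level, with 0.901 and 0.605 FPKM in mutant chromatin-bound RNA against 1.76 and 1.87 FPKM in Col-0. These replicates did not overlap either, but the log2(FPKM + 1) difference of -0.69 (SE 0.28) did not pass the threshold used for all genes (limma adjusted p = 0.130). GSTF3 also passed the filter of 1 FPKM on the mean only through its Col-0 values. In mRNA GSTF3 reached 16.1 FPKM in the mutant, against 0.217 FPKM in Col-0, in the authors' deposited table. GSTF2 and GSTF3, and likewise GSTF6 and GSTF7, are close paralogs, so the authors' counting could have assigned reads of one to the other, and the split within each pair is uncertain.

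**Figure D1:**
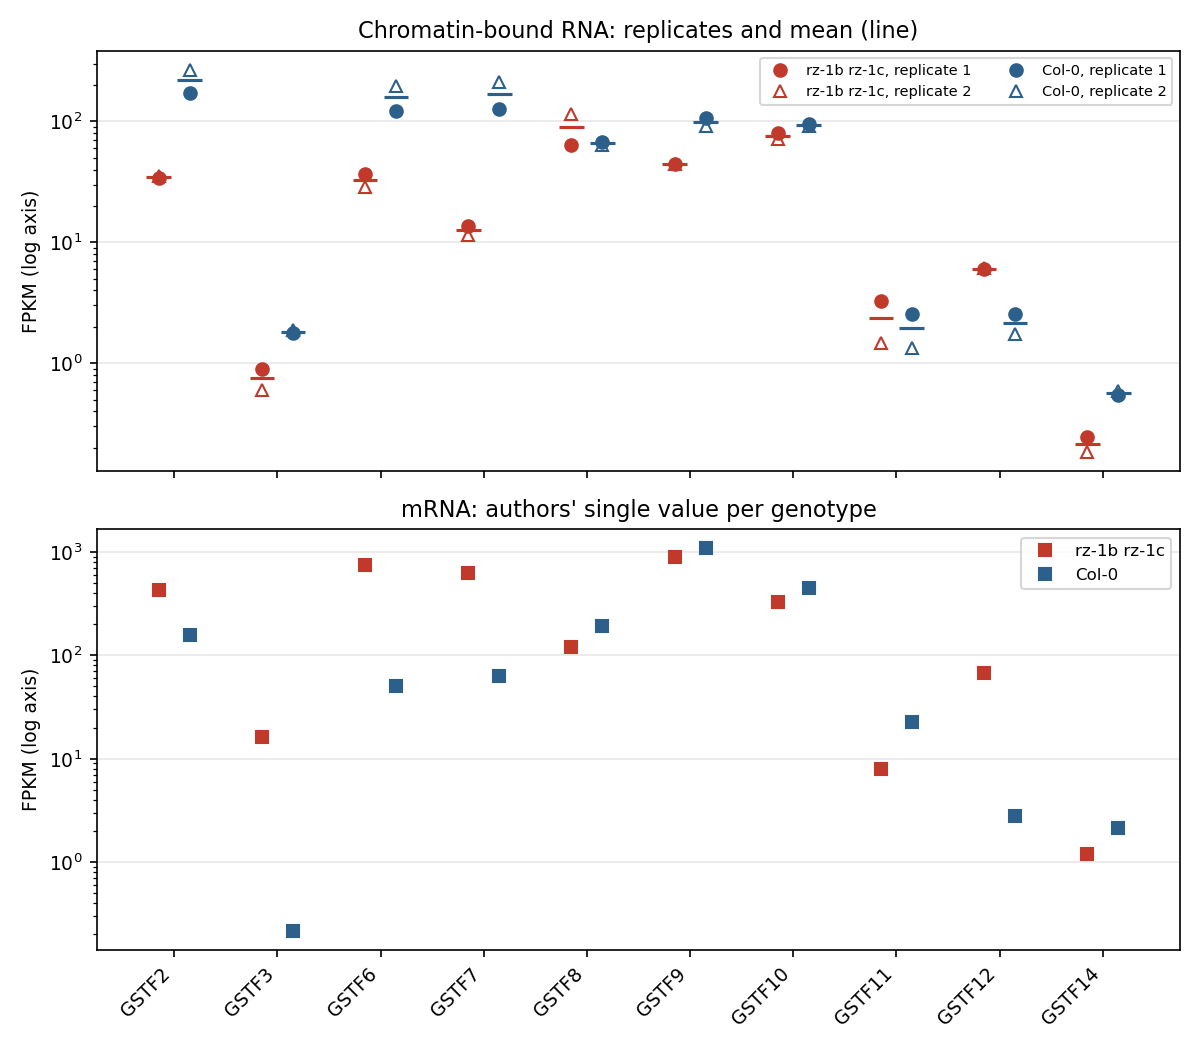
FPKM of the 10 phi-class genes on log axes, with the chromatin-bound replicates and their means above and the authors' single mRNA values below, rz-1b rz-1c left of Col-0 for each gene. GSTF2, GSTF6 and GSTF7 have mutant points below Col-0 on chromatin (GSTF7: 13.6 and 11.4 FPKM in the mutant against 126 and 211 in Col-0) and above it in mRNA (GSTF7: 631 FPKM in the mutant against 63.4 in Col-0).

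For these genes the 2 Col-0 replicates also differed from each other. Replicate 2 of Col-0 was above replicate 1 by 1.54 times for GSTF2, 1.59 times for GSTF6 and 1.67 times for GSTF7, whereas the median tested gene stood at 0.878 times and GSTF9 at 0.868 times. These 3 ratios were larger than those of 95.0%, 95.4% and 96.2% of tested genes. Replicate 2 is the shallower Col-0 column and the one with more rRNA, and the part of either in the 3 ratios was not tested. Without it, the log2 differences of GSTF2, GSTF6 and GSTF7 were -2.29, -1.89 and -3.23.

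GSTF8, GSTF9 and GSTF10, the 3 members with the highest levels on mutant chromatin, had smaller differences between the genotypes than GSTF2, GSTF6 and GSTF7. GSTF9 (AT2G30860) had 44.7 and 44.6 FPKM in mutant chromatin-bound RNA against 106 and 91.8 FPKM in Col-0, a log2(FPKM + 1) difference of -1.13 (SE 0.17) without overlap between the genotypes. It was the most abundant member in mRNA in both genotypes, at 903 FPKM in the mutant and 1082 FPKM in Col-0 in the authors' deposited table. GSTF10 (AT2G30870), its tandem neighbour, had 79.4 and 70.9 FPKM in the mutant chromatin-bound replicates and 95.1 and 91.7 FPKM in Col-0. The difference of -0.31 (SE 0.16) was small, although the replicates did not overlap. Its mRNA was 332 FPKM in the mutant against 445 FPKM in Col-0 in the authors' deposited table. GSTF8 (AT2G47730) gave 64.1 and 115 FPKM in mutant chromatin-bound RNA and 67.1 and 64.3 FPKM in Col-0, and mutant replicate 1 lay just below both Col-0 replicates and mutant replicate 2 above them. The log2 difference of 0.38 (SE 0.27) was -0.034 without mutant replicate 2. In mRNA GSTF8 was lower, at 121 FPKM in the mutant and 193 FPKM in Col-0 in the authors' deposited table.

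GSTF12 had higher mutant values on chromatin and in mRNA alike, and GSTF11 and GSTF14 stayed low on chromatin. GSTF12 (AT5G17220) had 5.96 and 6.12 FPKM in mutant chromatin-bound RNA against 2.55 and 1.74 FPKM in Col-0, 2.81-fold higher by the means (log2 difference 1.17, SE 0.24). Its mRNA was 67.0 FPKM in the mutant and 2.77 FPKM in Col-0 in the authors' deposited table, 24.2-fold higher. Of the 5 members with more mRNA in the mutant, GSTF12 was the 1 whose chromatin-bound replicates were also both above Col-0. GSTF11 (AT3G03190) had 3.29 and 1.48 FPKM in mutant chromatin-bound RNA and 2.57 and 1.34 FPKM in Col-0, with overlapping ranges, and its log2 difference of 0.17 (SE 0.36) changed sign with the scaling, to -0.013 after median-of-ratios rescaling and -0.17 after quantile normalization. In mRNA GSTF11 was at 7.98 FPKM in the mutant and 22.5 FPKM in Col-0 in the authors' deposited table. GSTF14 (AT1G49860) had 0.245 and 0.184 FPKM on mutant chromatin against 0.544 and 0.587 FPKM in Col-0, below the filter, and its mRNA was 1.19 FPKM in the mutant and 2.16 FPKM in Col-0 in the authors' deposited table.

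Of the 10 members 9 had a mean of at least 1 FPKM and entered the fit across all genes. The mutant replicates lay below both Col-0 replicates in 6 of the 9, where 15.7% of tested genes did so, and above them in 1, where 49.5% did so and 65.2% did not overlap in either direction. In the limma fit of all genes on log2(FPKM + 1), GSTF2, GSTF6, GSTF7 and GSTF9 were among the genes past the threshold as lower in the mutant and GSTF12 among those past it as higher, where, at a Benjamini-Hochberg adjusted p under 0.05, 4.24% of all 19694 tested genes were called lower, 13.2% higher and 17.4% in either direction. In mRNA, by the authors' deposited q under 0.05, GSTF2, GSTF3, GSTF6, GSTF7 and GSTF12 were higher and GSTF8, GSTF10 and GSTF11 lower, where 10.5% of 33554 genes were higher, 11% lower and 21.5% either. GSTF2, GSTF6 and GSTF7 met both rules in opposite directions, as did 1.15% of the 19658 genes with both values, and GSTF12 was higher by both rules, as were 4.76%. Because the members were chosen on both comparisons, these counts follow from the choice, are no evidence of a difference, and are not read against the background. Genes lower on chromatin and higher in mRNA numbered 226 in all, 27.1% of those called lower on chromatin and 6.4% of those called higher in mRNA. Without mutant replicate 1, GSTF9 and GSTF12 were no longer past the threshold, and without mutant replicate 2 GSTF6, GSTF9 and GSTF12 were not.

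**Figure D2:**
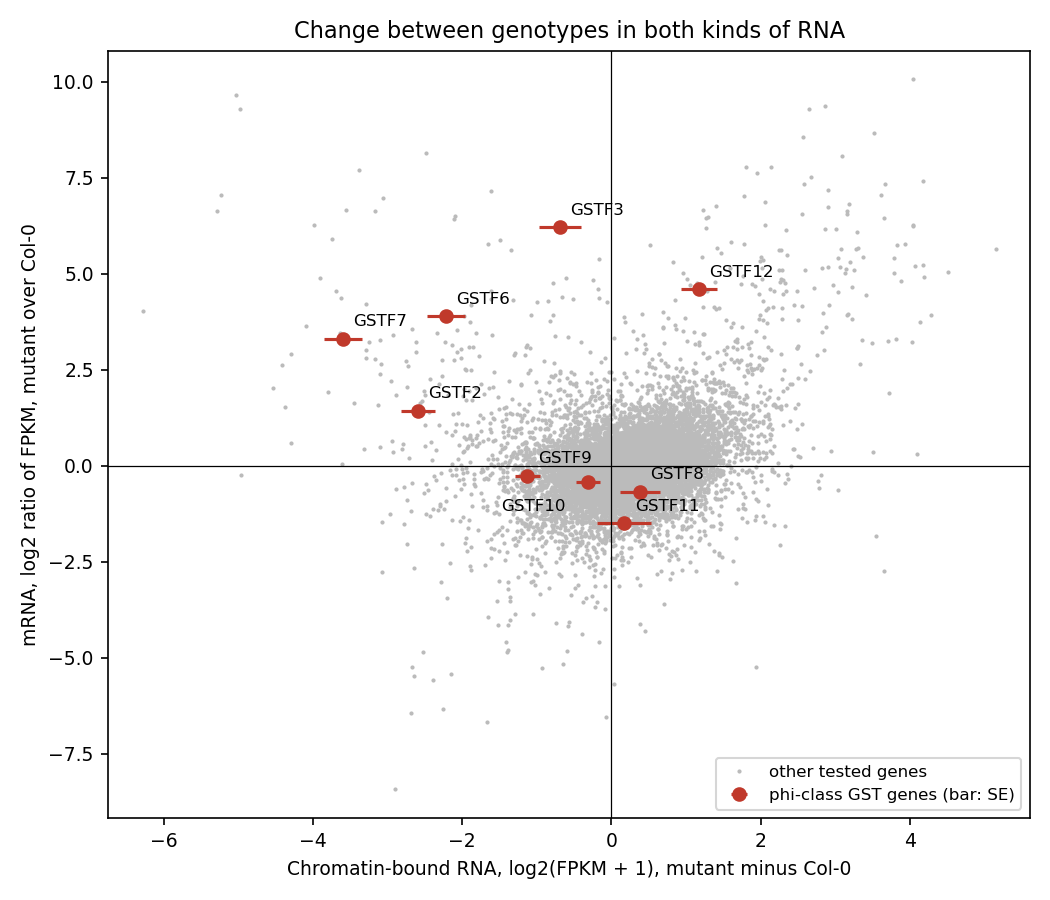
Each point is a gene with at least 1 mRNA FPKM in the higher genotype, with its chromatin-bound log2(FPKM + 1) difference on the x axis and its mRNA log2 ratio on the y axis, both mutant against Col-0; phi-class genes are red with the SE of the chromatin-bound difference. GSTF7 (-3.60 and 3.32), GSTF6 (-2.22 and 3.90) and GSTF2 (-2.60 and 1.44) lie in the upper left, GSTF12 (1.17 and 4.60) in the upper right, and GSTF8 to GSTF11 near the centre. GSTF3 (-0.69 and 6.21), whose chromatin-bound difference was not called, lies highest.

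The order of the members by level differed between the genotypes and between the kinds of RNA. On mutant chromatin GSTF8, GSTF10 and GSTF9 were the top 3 in both replicates, with GSTF8 and GSTF10 changing places between them, and GSTF2 and GSTF6, whose ranges overlapped, came next. On Col-0 chromatin GSTF2, GSTF7 and GSTF6 came in that order in both replicates, but the ranges of all 3 overlapped. GSTF9 and GSTF10, which overlapped each other, and then GSTF8 stood below them. In mRNA the order from the top was GSTF9, GSTF6, GSTF7, GSTF2 and GSTF10 in the mutant, and GSTF9, GSTF10, GSTF8, GSTF2 and GSTF7 in Col-0. Over the 10 members, Spearman's rho between mean chromatin-bound FPKM and mRNA FPKM was 0.648 in the mutant and 0.648 in Col-0, a description over genes that share their libraries.

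The make-up of the family's RNA shows the same shift as shares. GSTF2, GSTF6 and GSTF7 together held 29.8% and 24.0% of the summed chromatin-bound FPKM of the 10 genes in the mutant replicates, against 60.5% and 72.6% in Col-0. In mRNA they held 55.5% in the mutant and 13.4% in Col-0. GSTF8, GSTF9 and GSTF10 held 66.5% and 73.3% on mutant chromatin against 38.4% and 26.8% on Col-0 chromatin, and 41.7% of mutant mRNA against 85.3% of Col-0 mRNA. Such shares do not depend on how a column was scaled to its total. The summed FPKM was 283 and 314 on mutant chromatin against 697 and 925 on Col-0 chromatin, and 3254 in mutant mRNA against 2017 in Col-0 mRNA.

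**Figure D3:**
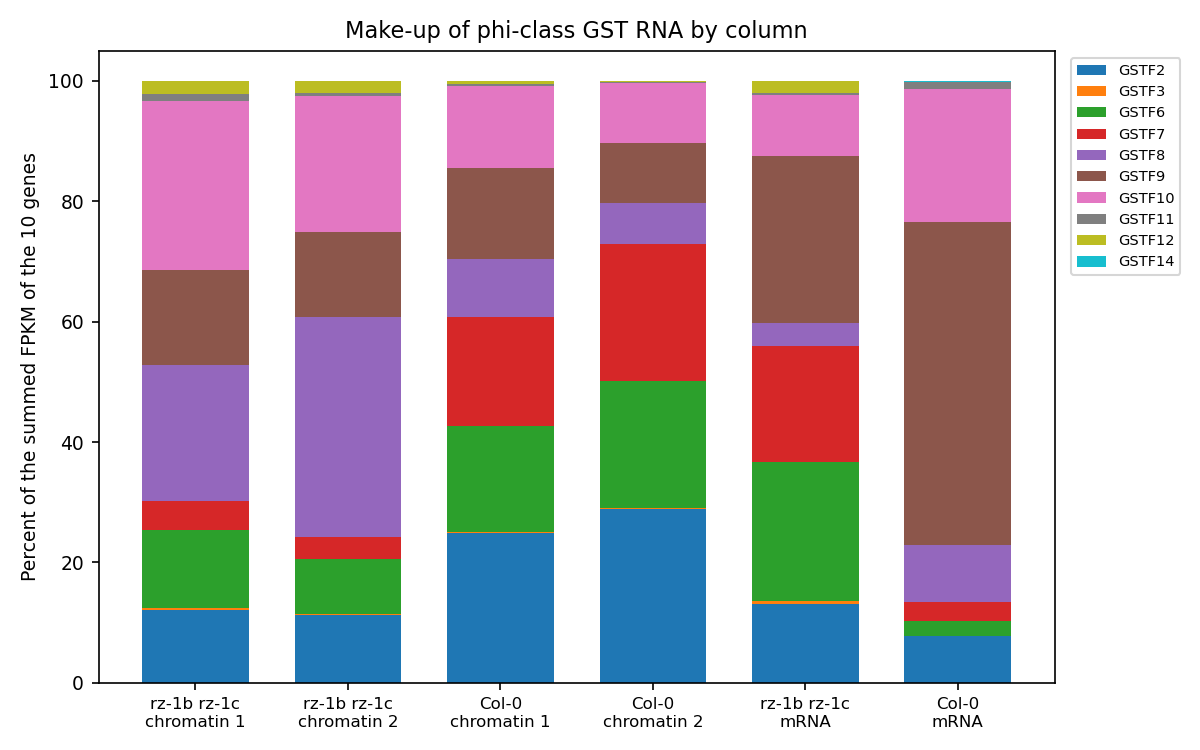
Stacked bars give each gene's percent of the summed FPKM of the 10 phi-class genes in each column, rz-1b rz-1c left of Col-0 within each kind of RNA. GSTF2, GSTF6 and GSTF7 fill 29.8% and 24.0% of the mutant chromatin bars against 60.5% and 72.6% in Col-0, and 55.5% of the mutant mRNA bar against 13.4% in Col-0.

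Within tandem pairs the deposited values changed unequally. GSTF7 and GSTF6 lie next to each other on chromosome 1, followed by GSTF5 and GSTF4, and GSTF9 and GSTF10 are neighbours on chromosome 2, by the order of genes in the RefSeq annotation of TAIR10.1. The FPKM ratio of GSTF6 to GSTF7 was 2.69 and 2.51 on mutant chromatin and 0.974 and 0.924 on Col-0 chromatin. GSTF7 was thus the lower of the pair in both mutant replicates, and in Col-0 the pair was nearly even. Reads of these close paralogs may have been assigned to one another, so this split is uncertain. In mRNA that ratio was 1.19 in the mutant and 0.792 in Col-0. GSTF9 to GSTF10 stood at 0.562 and 0.629 on mutant chromatin and at 1.11 and 1.001 on Col-0 chromatin, and in mRNA at 2.72 in the mutant and 2.43 in Col-0. LPA1, which flanks GSTF7 on its other side, had 24.4 and 24.1 FPKM on mutant chromatin and 20.4 and 21.97 on Col-0 chromatin (limma adjusted p = 0.449). In RefSeq GSTF2 overlaps TOC159, GSTF8 overlaps AT2G47720, GSTF10 overlaps SWAP70, GSTF11 overlaps NAC045 and GSTF12 overlaps PSY. TOC159, a chloroplast import receptor gene, had 100.4 and 111 FPKM on mutant chromatin against 66.7 and 72.8 in Col-0, the opposite direction to GSTF2. PSY, of carotenoid synthesis, had 78.0 and 76.0 FPKM on mutant chromatin against 65.8 and 56.4 in Col-0, well above GSTF12. The chromatin-bound libraries keep strand, but whether the counting used it was not found in the labels, so reads of these genes in the shared stretches may not be separate.

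The genes whose chromatin-bound pattern was closest to the 3 members with the largest differences were found by Euclidean distance over the 4 columns, in log2(FPKM + 1) centred on each gene's mean. For GSTF7 they were AT4G11170 (distance 0.153), the flagellin-responsive receptor kinase gene FRK1 (0.215) and AT1G26380 (0.244). For GSTF2 they were AT1G65690 (0.104), PBS3 (0.144), an enzyme of salicylic acid synthesis, and CHX17 (0.194). For GSTF6 they were PDF1.4 (0.130), AT3G46280 (0.147) and the formate dehydrogenase gene FDH (0.161). By the q values of the authors' deposited table, 6 of these 9 genes were higher in mutant mRNA, 2 were lower and AT4G11170 was not called. Of all 835 genes called lower on chromatin, 226 were higher in mRNA and 242 lower. The 9 were picked by likeness to members that were themselves chosen on both comparisons, so the count is a description and is not read against the 835. AT4G11170, FRK1, AT1G26380, PBS3 and PDF1.4 passed the filter of 1 FPKM on the mean only through their Col-0 values. In the authors' deposited table FRK1 was at 2.32 FPKM in the mutant and 0.209 in Col-0, AT1G26380 at 33.4 in the mutant and 0.328 in Col-0, and PDF1.4 at 22.6 in the mutant and 2.42 in Col-0. PBS3, AT1G65690 and AT3G46280 were the other three that were higher there, with log2 ratios of 2.61, 0.52 and 0.87. The 2 that were lower were FDH and CHX17. FDH was at 49.3 FPKM in the mutant and 102 in Col-0 there, and CHX17 at 11.7 in the mutant and 19.1 in Col-0.

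The other 3 phi-class genes, GSTF4, GSTF5 and GSTF13, were not among the members and were scarce on chromatin. GSTF13 (AT3G62760) had 2.17 and 1.12 FPKM on mutant chromatin against 1.49 and 0.594 in Col-0 (log2 difference 0.38, SE 0.36, limma adjusted p = 0.475). GSTF4 had 0.953 and 1.29 FPKM in the mutant against 1.58 and 0 in Col-0, and GSTF5 reached at most 0.339 FPKM in any column, so both fell below the filter. In mRNA the authors' deposited table gives GSTF4 as 6.16 FPKM in the mutant and 11.4 in Col-0 (q = 0.00235), GSTF13 as 0.661 in the mutant and 5.63 in Col-0 (q = 0.00257), and GSTF5 as 3.83 in the mutant and 0.387 in Col-0 (q = 0.00343). Of the tandem array, then, GSTF5 shared the higher mutant mRNA of GSTF6 and GSTF7, and GSTF4, at its end, did not. GSTF5 was low beside its neighbour GSTF6, at 751 FPKM in mutant mRNA and 50.2 in Col-0 mRNA. Whether reads of GSTF6 were counted for GSTF5 was not tested.

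The tau class is the other large plant class of glutathione transferases, and many of its genes respond to herbicides and stress. Of its 28 genes 11 fell and 1 rose in the mutant's chromatin-bound RNA by limma, 12 did not pass and 4 were below the filter. Over all tested genes 4.24% fell and 13.2% rose. The median log2 difference of the tested tau genes was -0.92 against 0.27 over all tested genes. GSTU19, an abundant detoxifying enzyme, had 55.3 and 57.4 FPKM in mutant chromatin-bound RNA against 182 and 191 in Col-0 (log2 difference -1.71, SE 0.16, n = 2 per genotype, limma adjusted p = 0.0017). GSTU4 had 2.60 and 1.73 FPKM in the mutant against 8.13 and 13.7 in Col-0 (limma adjusted p = 0.00828), and GSTU24 6.54 and 5.45 in the mutant against 17.5 and 25.2 in Col-0 (limma adjusted p = 0.00572). GSTU3 was listed at 0 in both mutant replicates and had 1.24 and 5.08 FPKM in Col-0 (limma adjusted p = 0.0383), so that it passed the filter through Col-0 alone and lost the call after median-of-ratios rescaling. In mRNA 11 of the 28 rose and 9 fell by the authors' q, where 10.5% of all genes rose and 11% fell. GSTU4 was at 12.5 FPKM in the mutant and 2.21 in Col-0 (q = 0.000329), GSTU24 at 42.6 in the mutant and 26.3 in Col-0 (q = 0.00062), and GSTU19 at 383 in the mutant and 483 in Col-0 (q = 0.0571) in the authors' deposited table. GSTU14 fell there to 3.59 FPKM in the mutant, against 24.5 in Col-0 (q = 0.000329). Of the 11 tau genes that fell on chromatin, 7 rose in mRNA and 1 fell. Of all 835 genes that fell on chromatin, 226 rose in mRNA and 242 fell. GSTU12, named after its values were seen, combined 0.520 and 0.780 FPKM on mutant chromatin, against 2.72 and 4.77 in Col-0, with 22.0 FPKM in mutant mRNA against 0.370 in Col-0 in the authors' deposited table. GSTU12 too passed the filter through Col-0 alone.

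In the smaller classes, the zeta, theta and lambda transferases and the dehydroascorbate reductases, 3 of 11 genes fell on chromatin, 0 rose and 8 did not pass, with a median log2 difference of -0.39. Over all tested genes 4.24% fell and 13.2% rose. The lambda gene GSTL1 had 2.12 and 4.17 FPKM in the mutant against 8.06 and 8.44 in Col-0 (limma adjusted p = 0.0302). GSTL3 had 12.03 and 12.2 in the mutant against 20.55 and 20.5 in Col-0 (limma adjusted p = 0.0318; both lambda calls were lost without Col-0 replicate 2), and GSTZ1, an enzyme of tyrosine breakdown, 22.4 and 19.4 in the mutant against 45.4 and 39.7 in Col-0 (limma adjusted p = 0.0132). In mRNA 4 of the 11 rose and 1 fell by the authors' q. Of all genes, those without mRNA included, 10.5% rose and 11% fell, and both shares were larger among expressed genes. There GSTL1 was at 6.80 FPKM in the mutant and 2.84 in Col-0 (q = 0.00062), GSTT1 at 80.9 in the mutant and 54.7 in Col-0 (q = 0.00062) and GSTL3 at 108 in the mutant and 146 in Col-0 (q = 0.00889) in the authors' deposited table.

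Both genes of glutathione synthesis fell on chromatin, and neither passed in mRNA. GSH1, whose enzyme joins glutamate and cysteine, had 70.9 and 64.7 FPKM on mutant chromatin against 126 and 155 in Col-0 (log2 difference -1.03, SE 0.18, limma adjusted p = 0.012). GSH2, glutathione synthetase, had 45.05 and 41.3 in the mutant against 86.4 and 68.8 in Col-0 (log2 difference -0.82, SE 0.18, limma adjusted p = 0.0255). In the authors' deposited table GSH1 was at 140 FPKM in mutant mRNA and 122 in Col-0 mRNA (q = 0.292), and GSH2 at 66.1 in the mutant and 64.1 in Col-0 (q = 0.838). Of the 7 genes of glutathione synthesis, reduction and turnover, these 2 fell on chromatin, 4 did not pass and 1 was below the filter, where 4.24% of all tested genes fell. The median of those tested in this list was -0.36. GR1, one of the 4, was called lower after median-of-ratios rescaling (-0.75) and after quantile normalization (-0.65). In mRNA the reductase gene GR1 rose, to 82.5 FPKM in the mutant against 59.1 in Col-0 (q = 0.00278), and GGT1, a gamma-glutamyl transpeptidase outside the cell, fell to 12.2 in the mutant against 24.6 in Col-0 (q = 0.000329) in the authors' deposited table.

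Among the 3 vacuolar transporters of glutathione conjugates 0 were called on chromatin and 2 rose in mRNA. For comparison, 4.24% of all tested genes fell and 13.2% rose on chromatin. In mRNA 10.5% of all genes, those without mRNA included, rose and 11% fell. On chromatin limma gave 1 transporter, ABCC2, an unadjusted p under 0.05. It was called lower after median-of-ratios rescaling (-0.67) and after quantile normalization (-0.58). The median chromatin-bound log2 difference was -0.23 for the transporters and 0.15 for the list of TGA factors and SCL14. ABCC3 had 180 and 259 FPKM on mutant chromatin against 171 and 158 in Col-0 (limma adjusted p = 0.237), and its mRNA was at 57.2 FPKM in the mutant and 19.6 in Col-0 in the authors' deposited table (q = 0.000329). ABCC1 had 67.5 and 79.3 FPKM on mutant chromatin against 86.6 and 85.6 on Col-0 chromatin (limma adjusted p = 0.357). ABCC2 mRNA was at 21.1 FPKM in the mutant and 14.8 in Col-0 in the same table of the authors (q = 0.00141). TGA factors are leucine zipper proteins that bind promoters of many glutathione transferase genes, and SCL14 is their partner in detoxification responses. Of these 7 genes only SCL14 was called on chromatin, with 25.8 and 26.8 FPKM in the mutant against 17.7 and 15.1 in Col-0 (limma adjusted p = 0.0445), and it lost the call after median-of-ratios rescaling and after quantile normalization. In mRNA only TGA1 was called, at 37.4 FPKM in the mutant and 51.7 in Col-0 in the authors' deposited table (q = 0.00445).

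Across these 6 lists, of 59 genes, 52 of them tested, 16 were called lower and 2 higher on chromatin. The lists were chosen with earlier results of these data known, so the counts are descriptions. Over all tested genes 4.24% were called lower and 13.2% higher. After median-of-ratios rescaling, which sets the median gene near 0, 22 of the 59 were called lower and 0 higher. Over all genes that rescaling gave 1544 lower and 1329 higher. With mutant replicate 1 or mutant replicate 2 left out, 1 of the 59 was called in either fit, GSTU19 both times.

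The called genes of the camalexin and anthocyanin lists, pathways in which GSTF6 and GSTF12 act, had the directions of those members. The lists were chosen with earlier results of these data known, so this likeness is a description and tests nothing. Of 4 camalexin genes 3 fell on chromatin and 3 rose in mRNA, with a median chromatin-bound log2 difference of -2.70, and of 4 anthocyanin genes 2 rose on chromatin, 1 did not pass and 1 was below the filter, with a median of 1.39 over those tested. Over all tested genes 4.24% fell and 13.2% rose on chromatin. In mRNA 10.5% of all genes, those without mRNA included, rose and 11% fell, and both shares were larger among expressed genes. CYP71A12, CYP71A13 and PAD3, cytochrome P450 genes of camalexin synthesis on either side of the GSTF6 step, were lower on mutant chromatin and higher in mutant mRNA. PAD3 had 1.18 and 1.14 FPKM on mutant chromatin against 16.6 and 24.3 in Col-0 (limma adjusted p = 0.000885), and its mRNA was at 22.0 FPKM in the mutant and 1.18 in Col-0 in the authors' deposited table (q = 0.000329). CYP71A13 had 1.17 and 0.961 FPKM on mutant chromatin against 6.41 and 9.82 on Col-0 chromatin (limma adjusted p = 0.0045), and 27.9 FPKM in mutant mRNA against 0.323 in Col-0 mRNA (q = 0.000329) in the authors' deposited table. CYP71A12 had 0 and 0.322 FPKM on mutant chromatin against 31.0 and 57.7 on Col-0 chromatin, and 116 in mutant mRNA against 0.870 in Col-0 mRNA in the authors' deposited table. CYP71A12 passed the filter through Col-0 alone. GGP1, the fourth of that list, passed in neither (limma adjusted p = 0.157, authors' deposited q = 0.537). Of the anthocyanin genes around GSTF12, DFR had 8.11 and 7.99 FPKM on mutant chromatin against 0.587 and 0.398 in Col-0 (limma adjusted p = 0.00158). DFR passed the filter only through its mutant values, so its call is a description. LDOX had 4.08 and 4.56 in the mutant against 1.49 and 0.643 in Col-0 (limma adjusted p = 0.022). In mRNA DFR was at 66.0 FPKM in the mutant and 1.92 in Col-0, and LDOX at 58.1 in the mutant and 2.09 in Col-0, in the authors' deposited table (q = 0.000329 for each). The MYB regulator PAP1 had 4.45 and 1.88 FPKM on mutant chromatin against 1.14 and 0.592 in Col-0 (limma adjusted p = 0.0824), and also passed the filter only through its mutant values. With mutant replicate 1 or mutant replicate 2 left out, the calls of CYP71A13 and LDOX were lost, while those of PAD3, CYP71A12 and DFR were not.

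**Figure D4:**
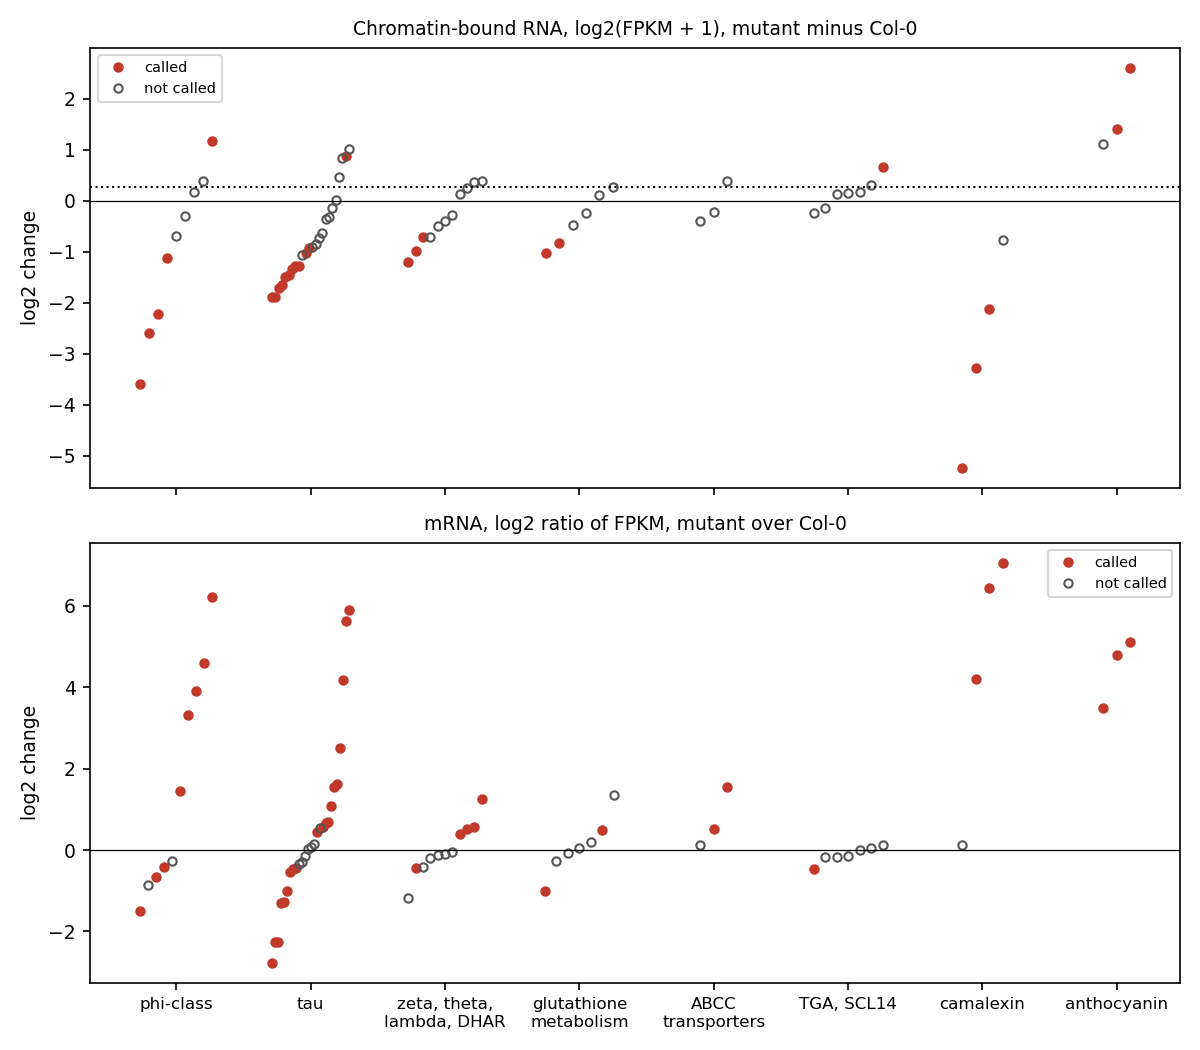
Each point is a gene of the phi class, of the other glutathione transferase classes or of a partner list, with its chromatin-bound log2(FPKM + 1) difference above and its mRNA log2 ratio below, both mutant against Col-0; filled points were called, genes are sorted by value within each list and panel, and the dotted line is the median of all tested genes, 0.27. The camalexin genes reach from -5.24 to -0.78 on chromatin and lie above 0 in mRNA, and the 3 anthocyanin genes with values lie above 0 in both.

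Markers of seedling organs, in lists also chosen with earlier results of these data known, moved too. Of 5 seed and embryo genes 4 rose on chromatin and 4 in mRNA, with summed FPKM of 67.3 and 93.2 on mutant chromatin against 3.95 and 0.298 in Col-0. Over all tested genes 13.2% rose and 4.24% fell on chromatin. In mRNA 10.5% of all genes, those without mRNA included, rose and 11% fell, and both shares were larger among expressed genes. CRA1, CRC, OLEO1 and OLEO2, the 4 that rose, passed the filter only through their mutant values. The other, the cruciferin gene CRU2, was below the filter, with 0.118 and 0.389 FPKM in the mutant and 0 in both Col-0 replicates. Of 5 root genes 3 fell and 1 rose on chromatin and 5 fell in mRNA, with summed mRNA FPKM of 205 in the mutant and 663 in Col-0 in the authors' deposited table. The root gene that rose, IRT1, passed the filter only through its mutant values. Of 5 leaf genes 0 were called on chromatin, where limma gave 3 with an unadjusted p under 0.05, CAB3, LHCA1 and LHCB2.2, all with higher values in the mutant, and 1 fell in mRNA, with summed chromatin-bound FPKM of 1136 and 1249 in the mutant against 1411 and 1128 in Col-0. Without Col-0 replicate 1 LHCA1 was called higher, and after quantile normalization RBCS1A and RBCS3B were called lower. Among these markers, the calls of PRP3, AT4G30170, BGLU21 and OLEO1 were lost when mutant replicate 1 or mutant replicate 2 was left out. Those of CRC and OLEO2 were lost only without mutant replicate 2 among the mutant columns. The part of tissue make-up or stage in the differences of the phi-class genes was not tested.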

How the data were processed

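The authors deposited chromatin-bound RNA as FPKM per gene, 2 columns per genotype from 4 libraries; how 2 libraries became 1 column was not found in the labels. The authors' deposited mRNA table holds 1 value per genotype, read as FPKM although the file does not name the unit, and their q-value per gene; 1 column of per-sample values was not used. The submitters' processing notes name the build TAIR10 and, without roles, Cuffdiff 2.2.1, Cufflinks, TopHat2 2.1.1, StringTie 1.3.4d and HISAT2 2.0.5. Total counts are unknown, so no counting interval is given.

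Genes averaging 1 FPKM or more over the 4 columns were tested as log2(FPKM + 1) with limma 3.58.1 (R 4.3.3, intensity trend, Benjamini-Hochberg over 19694 genes); such differences understate changes of low genes. The mRNA log2 ratio was recomputed from the 2 deposited values. The fit was tested on simulated data. Members and lists were chosen with earlier results of these data known. All members were named; from other lists, up to 4 called genes by largest chromatin-bound change (else the 2 most abundant), plus up to 2 by mRNA ratio. GSTF5, GSTU2, GSTU11, GSTU12, GSTU25, CAB3, LHCB2.2, GGP1, PAP1 and CRU2 were named after their values were seen. RefSeq names matched 32835 identifiers and all 10 members. Alternatives changed the pseudocount, filter, scaling, replicate block, replicates and q threshold. The iCLIP libraries (5 of RZ-1C-GFP, 1 of GFP alone), promoter motifs and protein identity were not analysed here.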

Additional observations from a re-analysis of the deposited data

Results flagged for a closer look

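Several genes moved one way in chromatin-bound RNA, in every replicate, and the other way in mRNA. For each, the mRNA log2 ratio minus the chromatin-bound log2(FPKM + 1) difference is given, both mutant against Col-0. The differences were not tested, because the mRNA table has 1 value per genotype, and the 2 scales are not the same. GSTF2, GSTF6 and GSTF7, lower on chromatin and higher in mRNA, stood at 4.04, 6.12 and 6.92. Among other glutathione transferases the value was 6.07 for GSTU3, 4.38 for GSTU4, 2.35 for GSTU24, 2.46 for GSTL1 and 1.38 for GSTZ1. The other tau genes called lower on chromatin and higher in mRNA, added after their values were seen, were GSTU12 at 7.39, GSTU11 at 6.98, GSTU2 at 2.56 and GSTU25 at 1.91. The camalexin genes CYP71A12, PAD3 and CYP71A13 gave 12.3, 7.50 and 8.55. RZ-1B, one of the mutated genes, and IRT1, a root iron transporter gene, went the opposite way, higher on chromatin and lower in mRNA, at -6.39 and -5.36. GSTU3, GSTU12, CYP71A12 and IRT1 passed the chromatin-bound filter through 1 genotype alone.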

How the results depend on the processing

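Across all genes 3430 were called in chromatin-bound RNA, and 1931 with no filter; among the 59 other transferase, glutathione, transporter and TGA genes 18 were called, and 10 with no filter, where more genes were tested. Higher and lower calls split 2595 to 835 as deposited, 1329 to 1544 after median-of-ratios rescaling and 1445 to 1541 after quantile normalization. Leaving out 1 replicate column at a time gave 227 to 4988 calls over all genes, 2 to 5 among the 10 members and 1 to 18 among the 59; the low ends came without a mutant column (348 and 227 over all genes). A lone column is then assumed to vary like the other genotype. Same-numbered columns deviated together with a correlation of 0.014 and the labels give no shared batch, so the number was not read as a pairing; a replicate block gave 4520 calls over all genes, 5 among the members and 24 among the 59. GSTF12 was not called with no filter, GSTF10 was called lower after median-of-ratios rescaling and GSTF3 after quantile normalization. Signs turned, with the cause not tested, for uncalled genes: GSTF11 (-0.013 after median-of-ratios, -0.17 after quantile, -0.22 to 0.57 with 1 column left out), GSTF8 (-0.034 to 0.79 with 1 left out), GSTF13 (-0.012 after quantile), GSTT1 (-0.14 after median-of-ratios, -0.082 after quantile, -0.073 to 0.32 with 1 left out), GGT1 (-0.0036 after median-of-ratios), TGA1 (-0.36 to 0.063 with 1 left out) and PIP2;4 (-0.12 after quantile, -0.072 to 0.54 with 1 left out). The count of members lower on chromatin and higher in mRNA, whose alternatives were added after seeing the data, was 3, with 4 after quantile normalization and 2 without mutant replicate 2. With q under 0.01 in mRNA, 7 of the 8 member calls were left, GSTF10 dropping out. The promoter alternative was not run. Depth is unknown, so no counting error can be given for genes at a few FPKM or less, such as GSTF3, GSTF11, GSTF12 and GSTF14.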
